A study of Mus musculus with 9 samples.

Results

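Interferon-stimulated genes are switched on in nearly every cell type when interferons, the secreted signals of antiviral defence, bind their receptors. Type I interferon receptors activate the kinases JAK1 and TYK2 and, through them, the transcription factor ISGF3, of which IRF9 is a part and which binds the interferon-stimulated response element in the promoters of its target genes, and the proteins made in this way bind viral RNA, block viral entry or hold budding virus at the cell surface. In the healthy brain the genes are kept at a low tonic level, and microglia, endothelial cells and cells of the meninges and choroid plexus are known to respond to interferon. The 9 genes described here were taken by symbol from a given list: Irf7, Irf9, Isg15, Ifit1, Ifit3, Ifitm3, Ifi27, Bst2 and Oasl2. They are 9 of the 26602 genes with at least 1 count, and all 9 were among the 18127 genes that reached 10 counts over the 9 libraries and were tested.

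The midbrain including the substantia nigra was taken from 4 WT (DJ-1+/+) mice and 5 DJ-1 KO (DJ-1-/-) mice homozygous for a targeted DJ-1 allele, all 3 to 4 months old and untreated. The knockout line was backcrossed to C57BL/6 and bred from heterozygous parents, so that every cell of a DJ-1 KO mouse carries the targeted allele. Polyadenylated RNA was sequenced as 3′ libraries, in which a stretch next to the polyadenylated end of each transcript is sequenced, so that a long transcript gains no extra counts, and a level is given as counts per 1000000 counts of the library (cpm). Library totals were 841974 to 886085 in WT and 967751 to 1098125 in DJ-1 KO mice, so every DJ-1 KO library was deeper, and 3 counts, the detection limit used here, are 2.73 to 3.56 cpm. Park7, which encodes DJ-1, was at 135 ± 15.7 cpm (SD, n = 4) in WT and 20.4 ± 4.54 cpm (SD, n = 5) in DJ-1 KO mice, and it was the 1 gene of 18127 (0.00552%) with an adjusted p under 0.05 between genotypes (edgeR log2 fold change -2.71, standard error 0.15, adjusted p = 7.44e-08). Xist, the RNA that coats an inactive X, had 0, 1 and 2 counts in WT replicate 1, WT replicate 4 and DJ-1 KO replicate 5 and 146 to 193 counts in the other 6 mice, and the Y-linked gene Ddx3y had 113 to 152 counts in those 3 mice and 0 to 4 in the rest. The labels do not give the sex of the mice. By these counts the 3 mice read as male and the other 6 as female. WT replicate 1 stood apart in cerebellar neuron markers, with a summed 660 cpm over 5 genes against 60.5 to 164 cpm in the other mice, and WT replicate 4 in choroid plexus markers, with 1175 cpm over 11 genes against 361 to 662 cpm. Dopaminergic neuron markers, which the substantia nigra should hold, had counts for all 7 genes and summed to 324 to 782 cpm. The whole tissue was measured, so fewer cells of a type and less RNA per cell cannot be told apart.

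The promoters show which of the genes carry the core of the response element in its simplest spelling, the letters GAAA repeated after a gap of any 2 bases, on either strand. RefSeq promoter windows (GRCm38.p6, 250 bases before to 50 after a start) matched 8 of the 9 genes, and Ifi27 is named only. The core stood in 5 of the 8, and in 1131 of all 32851 windows (3.44%). Of the other interferon-stimulated genes on a longer list, 20 of 39 with a window (51.3%) carried it, against 4.0% of all 27025 genes. The 4 promoters with the core before the start are shown 5′ to 3′ on the strand of the gene, with each core or run of overlapping cores in capitals. Isg15, Ifit3 and Bst2 are shown up to the RefSeq start. Ifit1 is shown up to the first base of the gene in the GENCODE annotation, which lies before its RefSeq start. The distances given below are counted from the RefSeq start.
Isg15 (chr4:156200819-156200968, minus strand): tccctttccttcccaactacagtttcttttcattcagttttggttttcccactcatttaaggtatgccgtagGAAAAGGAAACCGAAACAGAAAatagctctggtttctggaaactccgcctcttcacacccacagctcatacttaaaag
Ifit1 (chr19:34640739-34640870, plus strand): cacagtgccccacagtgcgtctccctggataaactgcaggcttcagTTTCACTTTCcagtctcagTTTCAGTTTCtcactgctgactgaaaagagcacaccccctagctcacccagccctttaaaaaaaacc
Ifit3 (chr19:34583363-34583528, plus strand): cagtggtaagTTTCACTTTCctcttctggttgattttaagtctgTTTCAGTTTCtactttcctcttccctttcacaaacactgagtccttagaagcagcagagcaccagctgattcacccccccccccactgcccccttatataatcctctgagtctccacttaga
Bst2 (chr8:71537473-71537622, minus strand): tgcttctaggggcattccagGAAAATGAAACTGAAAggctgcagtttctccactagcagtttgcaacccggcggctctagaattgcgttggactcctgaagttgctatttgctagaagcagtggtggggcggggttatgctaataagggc
Isg15 held 3 overlapping cores starting 78, 72 and 66 bases before the start, and Bst2 a pair of overlapping ones at 130 and 124 bases. Ifit1 and Ifit3 each held a pair on the opposite strand, at 104 and 85 and at 156 and 122 bases before the start. In Ifitm3 the matches lay 2 and 19 bases after the start. These letters were not found in the windows of Irf7, Irf9 and Oasl2. A match is a run of letters and says nothing of binding in these mice.

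At the level of the single genes, mean expression over the 9 mice spanned from 92.5 ± 17.9 cpm for Ifi27 (SD, n = 9) to 4.09 ± 2.17 cpm for Irf7 (SD, n = 9). Ifi27 was above Ifitm3 in 9 of 9 mice, with Ifitm3 at 63.7 ± 11.7 cpm (SD, n = 9), and Ifitm3 was above Irf9 in 9 of 9, with Irf9 at 38.8 ± 6.501 cpm (SD, n = 9). Ifit1 followed at 26.8 ± 7.95 cpm and Ifit3 at 24.0 ± 10.5 cpm (SD, n = 9), and these neighbours differed by less than their spread. Isg15 at 11.3 ± 4.56 cpm, Bst2 at 9.18 ± 4.89 cpm and Oasl2 at 8.53 ± 5.54 cpm (SD, n = 9) were likewise not separable, with Isg15 above Bst2 in 5 of 9 mice and Bst2 above Oasl2 in 4 of 9. The ranges over mice overlapped for every pair of neighbours in this order.

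Between the genotypes, the comparison that the labels define, no difference passed the test for any of the 9 genes. The summed level of the 9 genes was 279 ± 55.2 cpm in WT (SD, n = 4) and 279 ± 59.2 cpm in DJ-1 KO mice (SD, n = 5). In edgeR's quasi-likelihood test 0 of the 9 had an adjusted p under 0.05 and 0 an unadjusted p under 0.05, where 511 of the 18127 genes tested (2.82%) had the latter. DESeq2's test likewise gave 0 of the 9 at either threshold. For 0 of the 9 did the cpm separate the genotypes, where 226 genes (1.25%) did. The fitted log2 fold change was above 0 for 6 and below 0 for 3 genes, with a median of 0.10 against 0.0071 over all genes tested, and with single libraries left out this median ran from -0.044 without WT replicate 1 to 0.20 without WT replicate 3. With Xist added to the model as a covariate, 2 of the 9 were above and 7 below 0, with a median of -0.13, and the median was -0.20 without WT replicates 1 and 4 together and -0.11 in the 6 mice with over 100 Xist counts. Each of the 9 genes had an adjusted p of 0.9999 by edgeR. The p-values measure the spread between mice, each of which gave 1 library. Markers of neighbouring tissue leaned by genotype in the fits, but their summed levels overlapped. All 11 choroid plexus and all 5 cerebellar markers had lower fitted levels in DJ-1 KO mice, 7 and 3 of them at an unadjusted edgeR p under 0.05. All 7 dopaminergic markers had higher ones, 3 of them at that threshold. Choroid plexus markers summed to 361 to 1175 cpm in WT, highest in replicate 4, and 361 to 509 cpm in DJ-1 KO mice. Cerebellar markers summed to 60.5 to 660 cpm in WT, highest in replicate 1, and 109 to 162 cpm in DJ-1 KO mice. Dopaminergic markers summed to 324 to 756 cpm in WT and 560 to 782 cpm in DJ-1 KO mice. Of these markers 0 passed adjustment, and the part of the dissection in the genotype comparison was not tested.

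**Figure D1:**
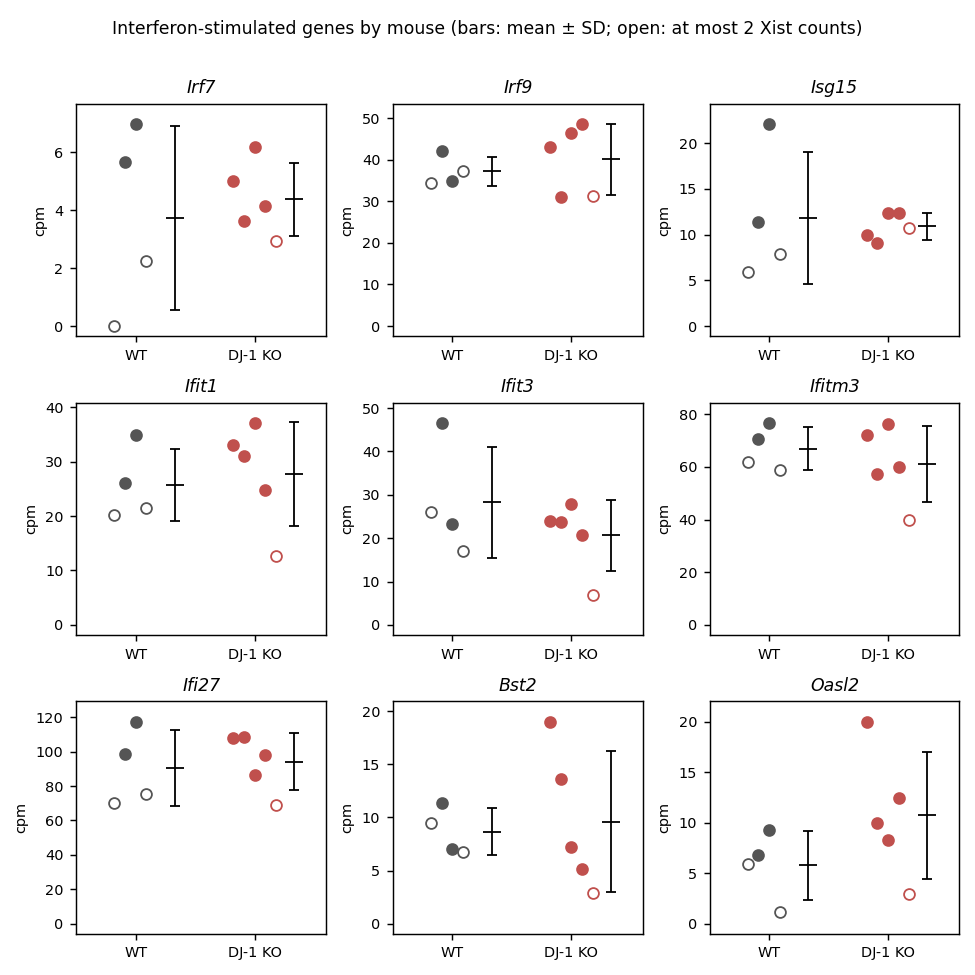
Expression of the 9 interferon-stimulated genes in each mouse. The y axis is cpm, counts per 1000000 counts of the library, and starts just under 0, each point is a mouse, the bars give the mean ± SD of the genotype (n = 4 and n = 5), and open points are the 3 mice with at most 2 Xist counts. The genotypes overlap in every panel, and for Irf7, Ifit1, Ifi27 and Oasl2 the open points lie below all filled ones.

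Among the transcription factors, Irf7, which drives the transcription of the type I interferon genes themselves, lies on the minus strand of chromosome 7, from 141262706 to 141266481 (positions from GENCODE M21, GRCm38). It had 0, 5, 6 and 2 counts in WT and 5, 4, 6, 4 and 3 counts in DJ-1 KO mice. The counts overlapped, 3 of the 9 mice were at or under 3 counts, and the WT mice held both the lowest and the highest level. edgeR's log2 fold change was 0.21 (95% interval -1.06 to 1.48), so that a change of 2-fold in either direction lay within the interval, and it was -0.18 without WT replicate 1. Irf7 overlaps Phrf1 on the opposite strand, and the use of strand in the counting is not given in the sources used here.

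Irf9, the DNA-binding part of ISGF3, lies on the plus strand of chromosome 14, from 55603571 to 55610030, with 29, 37, 30 and 33 counts in WT and 43, 34, 45, 47 and 32 counts in DJ-1 KO mice. Its level of 37.2 ± 3.48 cpm in WT (SD, n = 4) and 40.0 ± 8.42 cpm in DJ-1 KO mice (SD, n = 5) differed by less than the SD in DJ-1 KO mice (exact permutation test, p = 0.524). Irf9 had the narrowest spread of the 9 genes relative to its level, with a coefficient of variation of 16.8%, and its log2 fold change of 0.10 had a 95% interval from -0.28 to 0.48. Rnf31, on the same strand, overlaps it and had 100 counts in all.

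Of the genes for antiviral effectors, Isg15 encodes a small ubiquitin-like protein that is attached to other proteins and lies on the minus strand of chromosome 4, from 156199424 to 156200818, with 5, 10, 19 and 7 counts in WT and 10, 10, 12, 12 and 11 counts in DJ-1 KO mice. The DJ-1 KO mice were close together, at 9.11 to 12.4 cpm, within the range of 5.94 to 22.1 cpm of the WT mice, where replicate 3 was the highest. The fitted log2 fold change was -0.12 (standard error 0.36), and it was 0.37 without WT replicate 3.

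Ifit1, whose product binds viral RNA, and Ifit3, of the same family, lie near each other on the plus strand of chromosome 19. They run from 34640871 to 34650009 and from 34583531 to 34588731. Ifit1 had 17, 23, 30 and 19 counts in WT and 33, 34, 36, 24 and 13 counts in DJ-1 KO mice, so that DJ-1 KO replicate 5 was the lowest mouse and 3 other DJ-1 KO mice lay above 3 of the 4 WT mice. On the log2 scale the fold change was 0.11 (95% interval -0.47 to 0.68), and it was -0.015 without DJ-1 KO replicate 3. Ifit3 had 22, 41, 20 and 15 counts in WT and 24, 26, 27, 20 and 7 counts in DJ-1 KO mice. WT replicate 2 was the highest and DJ-1 KO replicate 5 the lowest. At 28.2 ± 12.8 cpm in WT (SD, n = 4) and 20.6 ± 8.12 cpm in DJ-1 KO mice (SD, n = 5) the gap was under the SD of the WT mice (exact permutation test, p = 0.429). edgeR gave Ifit3 a log2 fold change of -0.46 (standard error 0.33), the lowest of the 9 genes, and it was -0.11 without WT replicate 2 and -0.24 without DJ-1 KO replicate 5.

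Ifit3 shares sequence with its paralog Ifit3b, and 14.9% of the 50-base windows in the last 500 bases of its transcript occur there too, so that a read from these windows cannot be told apart by sequence. Summed, they had 41, 80, 48 and 51 counts in WT and 53, 48, 67, 47 and 29 counts in DJ-1 KO mice. The sum differed in the same direction as Ifit3, with a log2 fold change of -0.39 (standard error 0.22), and the genotypes overlapped (exact permutation test of the cpm, p = 0.238). Ifit3b alone had a log2 fold change of -0.34 (standard error 0.24).

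Ifitm3, which blocks the fusion of viruses with endosomal membranes, lies on the minus strand of chromosome 7, from 141009586 to 141010770, with 52, 62, 66 and 52 counts in WT and 72, 63, 74, 58 and 41 counts in DJ-1 KO mice. DJ-1 KO replicate 5 was the lowest at 40.0 cpm, and the other mice lay between 57.4 and 76.8 cpm. edgeR's log2 fold change was -0.13 (95% interval -0.48 to 0.21), and without DJ-1 KO replicate 5 it was -0.020. Of its 50-base end windows 14.0% are shared with other genes, Ifitm1 and Ifitm2 among them, whose log2 fold changes were -0.068 (standard error 0.41) and -0.19 (standard error 0.30).

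Ifi27, which encodes a small hydrophobic membrane protein, was the highest of the genes and lies on the plus strand of chromosome 12, from 103434211 to 103440239, with 59, 87, 101 and 67 counts in WT and 108, 119, 84, 95 and 71 counts in DJ-1 KO mice. Both genotypes held mice near 70 cpm and mice above 100 cpm. The fitted log2 fold change was 0.056 (95% interval -0.27 to 0.38), and it was -0.044 without WT replicate 1 and -0.021 without WT replicate 4.

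Bst2, also called tetherin, holds budding virus particles at the cell surface, and lies on the minus strand of chromosome 8, from 71534255 to 71537456, with 8, 10, 6 and 6 counts in WT and 19, 15, 7, 5 and 3 counts in DJ-1 KO mice. The DJ-1 KO mice spanned the whole range, from the lowest to the highest, at 9.60 ± 6.62 cpm (SD, n = 5) against 8.65 ± 2.19 cpm in WT (SD, n = 4). On the log2 scale the fold change was 0.15 (standard error 0.46), and it was -0.24 without DJ-1 KO replicate 1 and -0.0097 without DJ-1 KO replicate 2.

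Oasl2, of the oligoadenylate synthetase family, lies on the plus strand of chromosome 5, from 114896936 to 114912234, with 5, 6, 8 and 1 counts in WT and 20, 11, 8, 12 and 3 counts in DJ-1 KO mice. Of the DJ-1 KO mice 3 lay above every WT mouse, while DJ-1 KO replicate 5 lay below 3 of the 4. The level was 5.80 ± 3.42 cpm in WT (SD, n = 4) and 10.7 ± 6.26 cpm in DJ-1 KO mice (SD, n = 5), a difference that did not exceed the SD of the DJ-1 KO mice (exact permutation test, p = 0.190). Its fitted log2 fold change of 0.87 (95% interval -0.24 to 1.98) was the highest of the 9 genes, with an unadjusted p of 0.115 in edgeR's test. It lay between 0.52 without DJ-1 KO replicate 1 and 1.19 without WT replicate 3, and without DJ-1 KO replicate 5 it was 1.11 with an unadjusted edgeR p under 0.05, where the exact permutation test gave p = 0.0571.

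**Figure D2:**
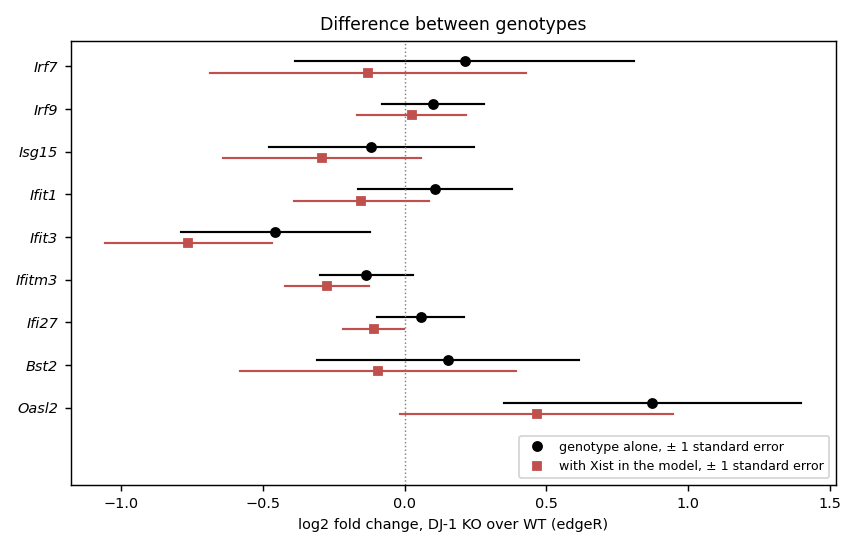
Log2 fold change of each gene, DJ-1 KO over WT, from edgeR's quasi-likelihood fit over all 9 mice. Circles are the fit with genotype alone and squares the fit with log2(cpm + 1) of Xist added, each with ± 1 standard error. The circles lie on both sides of 0, from -0.46 for Ifit3 to 0.87 for Oasl2, and for each of the 9 genes the square lies to the left of the circle.

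The mice differed from one another in these genes across both genotypes. The summed level was 234 and 228 cpm in WT replicates 1 and 4 and 179 cpm in DJ-1 KO replicate 5, and 286 to 334 cpm in the other 6 mice. The 3 low mice are those with at most 2 Xist counts. For 4 of the 9 genes, Irf7, Ifit1, Ifi27 and Oasl2, each of these 3 mice lay below each of the other 6, where 431 of all genes tested (2.38%) did so. Ifi27 was at 69.2 to 75.6 cpm in the 3 mice and at 86.7 to 118 cpm in the other 6. Ifit1 was at 12.7 to 21.4 cpm against 24.8 to 37.1 cpm. The low levels of Oasl2, at 1.13 to 5.94 cpm against 6.82 to 20.02 cpm, and of Irf7, at 0 to 2.92 cpm against 3.64 to 6.98 cpm, lie close to the detection limit. The other 5 genes overlapped between these sets of mice, with Ifitm3 at 40.0 to 61.8 cpm against 57.4 to 76.8 cpm and Irf9 at 31.2 to 37.2 cpm against 31.0 to 48.6 cpm.

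**Figure D3:**
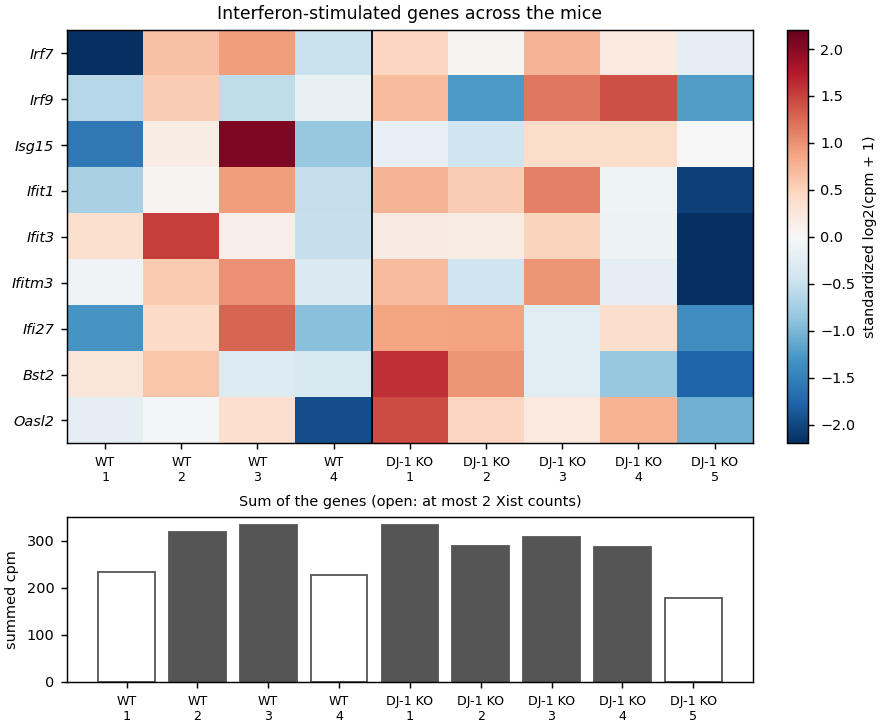
The 9 genes across the 9 mice. The upper panel gives log2(cpm + 1) of each gene, centred and divided by its SD over the mice, with the genotypes parted by a line, and the lower panel gives the summed cpm of the genes. The 3 open bars, the mice with at most 2 Xist counts, reach 179 to 234 cpm and the 6 filled bars 286 to 334 cpm, and blue cells gather in the columns of those 3 mice.

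With log2(cpm + 1) of Xist in the model beside genotype, all 9 genes had a positive slope on Xist, and 6 of them an unadjusted edgeR p under 0.05, where 649 of the genes tested (3.58%) rose with Xist at that threshold. The slope was read after the values had been seen. Xist was either near 0 or high, with no mouse between. The slope is thus in effect a comparison of the 3 low mice with the other 6, and it shows no graded relation to Xist. The 6 genes were Irf7, Ifit1, Ifit3, Ifitm3, Ifi27 and Oasl2. Ifi27 had the smallest unadjusted p at 0.000262 and a slope of 0.083 (standard error 0.018) in log2 units for each log2 unit of Xist, and its adjusted p was 0.0951 in edgeR's test with Benjamini-Hochberg adjustment. Of the 9 genes 0 had an adjusted p under 0.05 for this term, where 30 of the genes tested (0.165%) had one. Leaving out DJ-1 KO replicate 5 left 3 of the 9 at an unadjusted p under 0.05, namely Irf7, Isg15 and Ifi27, beside 2.31% of the genes rising with Xist and 4 genes at an adjusted p under 0.05. Leaving out WT replicate 1, the mouse with cerebellar markers, left 5, beside 5.24% of the genes rising with Xist. It raised the genes at an adjusted p under 0.05 to 389, Ifi27 among them at an edgeR adjusted p of 0.0466. Leaving out WT replicates 1 and 4 together left 6 beside 3.77%, but DJ-1 KO replicate 5 was then the single mouse low in Xist, and 5 of the 9 genes had their lowest level of all 9 mice in it.

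Within the WT mice alone, 2 of the 9 genes, Irf7 and Ifi27, had an unadjusted edgeR p under 0.05 for the slope, beside 1.24% of the genes tested, and within the DJ-1 KO mice alone it was 6, beside 4.89%, where the low end is the single mouse DJ-1 KO replicate 5. All 9 slopes were positive in either genotype. WT mice made up 2 of the 3 low mice, and the fit with Xist moved each of the 9 genotype differences downward. The log2 fold change of Ifit3 became -0.76 (standard error 0.29), with an unadjusted p of 0.0190 by edgeR that did not pass adjustment, and those of Irf7, Ifit1, Ifi27 and Bst2 changed sign. In the 6 mice with over 100 Xist counts the log2 fold change was -0.54 for Ifit3 and 0.64 for Oasl2, and 0 of the 9 genes had an unadjusted edgeR p under 0.05.

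Markers of other cell types moved in part with the same mice. The summed level of 6 meningeal fibroblast markers was 287, 221 and 239 cpm in the 3 low mice and 236 to 370 cpm in the other 6. All 6 had a positive slope on Xist, 2 of them at an unadjusted edgeR p under 0.05, and Col1a1 had the smallest, with an adjusted p of 0.0900. Of 7 blood markers 6 had a positive slope, 2 at that threshold, and they summed to 437 to 551 cpm in the low mice and 397 to 671 cpm in the others. Of 7 mural cell markers 6 had a positive slope, 1 at that threshold, with sums of 315 to 340 cpm against 310 to 380 cpm. The 12 endothelial markers summed to 854 to 915 cpm in the low mice and 861 to 1073 cpm in the others, and the 12 microglial markers to 730 to 749 cpm against 694 to 834 cpm, with 0 of 12 at an unadjusted p under 0.05 for the slope in either list. Choroid plexus markers were at 459 to 1175 cpm against 361 to 509 cpm and cerebellar neuron markers at 147 to 660 cpm against 60.5 to 162 cpm. The high ends were single mice, WT replicate 4 for the choroid plexus and WT replicate 1 for the cerebellar markers. In both lists DJ-1 KO replicate 5 lay within the range of the other 6 mice. Here the slope on Xist was negative at an unadjusted edgeR p under 0.05 for 4 of the 11 choroid plexus and 5 of the 5 cerebellar markers. Over all 18127 genes tested, 782 fell with Xist at that threshold. Of the choroid plexus and cerebellar markers, Otx2, on the choroid plexus list, passed adjustment (edgeR adjusted p = 0.0471). That is 1 gene of its list and is not read as a difference in choroid plexus as a whole. The part of these cell types in the levels of the interferon-stimulated genes was not tested.

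**Figure D4:**
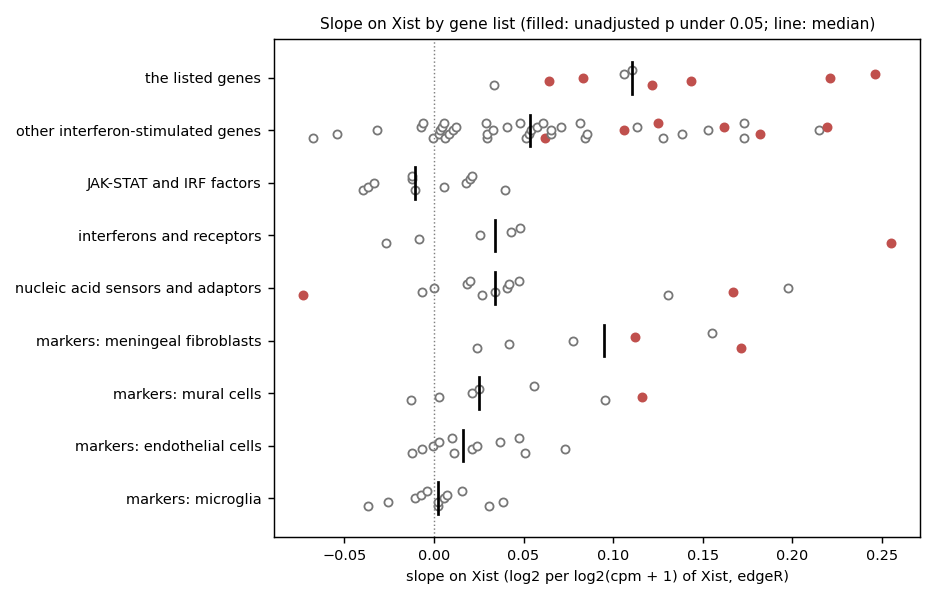
Slope of each tested gene on log2(cpm + 1) of Xist, from edgeR's fit with genotype and Xist, by gene list. Each point is a gene, filled where the unadjusted p was under 0.05, and the vertical line is the median of the list. The 9 listed genes all lie right of 0 with a median of 0.11, most of the other interferon-stimulated genes also lie right of 0, the meningeal fibroblast markers have a median of 0.095, and the microglial markers lie around 0.

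The rest of the pathway was read from the same fits. Of 51 other interferon-stimulated genes 44 were tested, of which 23 were higher and 21 lower in DJ-1 KO mice (median log2 fold change 0.022) and 0 at an unadjusted edgeR p under 0.05. The 2 with the smallest unadjusted p were Trim30a, a member of the TRIM family, at -0.39 (standard error 0.21), and Rsad2, the antiviral enzyme viperin, at -0.33 (standard error 0.22). On Xist, 38 of the 44 had a positive slope, where 9076 of all 18127 genes tested had one. Of the 44, 6 (13.6%) rose with Xist at an unadjusted edgeR p under 0.05, beside 3.58% of all genes tested. Those 6 were Iigp1, Lgals3bp, Gbp7, Xaf1, Ifi27l2a and Uba7, named after their values were seen. Their adjusted p-values ran from 0.404 to 0.631 in edgeR's test. The summed level of the 51 genes was 589, 639 and 620 cpm in WT replicates 1 and 4 and DJ-1 KO replicate 5, and 652 to 782 cpm in the other 6 mice, so that the same 3 mice were the lowest here too.

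Upstream of the genes, counts of the interferons themselves were absent for Ifnb1, Ifng, Ifna4 and Ifnk in all 9 mice, which allows up to 3 counts in each. The 6 receptor genes were all tested, and all 6 were higher in DJ-1 KO mice (median log2 fold change 0.081) and 0 at an unadjusted edgeR p under 0.05. Ifngr2, a chain of the interferon gamma receptor, had the smallest unadjusted p at 0.0570, with a log2 fold change of 0.33 (standard error 0.16), and with Xist in the model it was at 0.39 with an unadjusted edgeR p of 0.0364. Across all the pathway lists, Ifngr2 and Tbk1 were the 2 genes with an unadjusted p under 0.05 between genotypes in that model. Of all 18127 genes tested, 445 had one in that model, and 1 had an adjusted p under 0.05. The 2 genes are not read as a difference in the pathway. Ifnar1, a chain of the type I receptor, was at 0.11 (standard error 0.24). The 11 genes of the kinases and transcription factors of the pathway were 4 higher and 7 lower, with a median of -0.062, and 0 had an unadjusted edgeR p under 0.05 either between genotypes or for Xist. Irf5 had a log2 fold change of -0.35 (standard error 0.48).

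The sensors and adaptors that detect foreign nucleic acid were tested for 13 of 16 genes. In DJ-1 KO mice 10 of them were higher and 3 lower (median log2 fold change 0.23) and 0 at an unadjusted edgeR p under 0.05. The kinase gene Tbk1 was at 0.26 (standard error 0.16), and with Xist in the model at 0.43 with an unadjusted edgeR p of 0.00643, while the RNA sensor gene Tlr7 was at 0.57 (standard error 0.47). Of the genes that restrain the response, 3 were higher and 4 lower among 7 of 8 tested, with Socs1 at -0.81 (standard error 0.49) and the phosphatase gene Ptpn2 at -0.22 (standard error 0.15). The 4 genes that attach or remove ISG15 were 3 higher and 1 lower, with the protease gene Usp18 at 0.43 (standard error 0.61) and the conjugating enzyme gene Ube2l6 at 0.10 (standard error 0.52), and in these lists 0 genes had an unadjusted p under 0.05 between genotypes.

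Over all 9 mice, the median of Pearson's r of log2(cpm + 1) was 0.51 over the 36 pairs of genes and that of Spearman's rho 0.475, with r positive for 35 pairs, and 7 pairs had an unadjusted and 0 an adjusted p under 0.05 in permutation tests. The median r was 0.58 after centring on the genotype means and 0.41 without the 2 mice farthest from the median. The summed level fell into separate sets of mice, and the relation was also read within the 6 mice with over 100 Xist counts. There the median of Pearson's r over the 36 pairs of genes was 0.084, 20 of the 36 were positive, and r ran from -0.70 to 0.95, so that the relation over all mice was not seen within this set. These are descriptions over 6 mice that share the counting error of low counts. The genes outside the list whose levels were most like the mean of the 9 genes over the 9 mice, among 12631 genes with at least 90 counts, were Susd2 (r = 0.964), Fn1 (r = 0.954), Fchsd1 (r = 0.947), Wdr18 (r = 0.946) and Slit2 (r = 0.943). These values follow the gap between the 3 low mice and the rest, and they carry no test. Fn1, which encodes fibronectin, had 49, 46 and 52 counts in the 3 low mice and 77 to 92 in the other 6, and Susd2 had 33, 29 and 27 counts against 44 to 58.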

How the data were processed

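The authors deposited, for each mouse, a UMI count of each gene by Ensembl identifier, unnormalized, with genes without a count left out. Per the labels, libraries were made with a 3′ mRNA-seq kit (QuantSeq FWD), and the submitters' processing notes name fastp 0.20.0, STAR 2.7.3a, featureCounts 2.0.0 of Subread, UMI-tools 1.0.0 and GRCm38. The annotation release and the use of strand are not given in the sources used here. UMIs count PCR copies of a molecule once. How reads that match several genes were treated is not given in the sources used here, and counts of close paralogs may miss or mix such reads. Counts were joined by identifier, and an unlisted gene was given 0 counts. Of 26602 genes 26576 matched GENCODE M21, the source of symbols and positions.

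A gene entered the fit with 10 or more counts in all, and the counts were fitted in edgeR 4.0.16 (estimateDisp, glmQLFit and glmQLFTest, TMM, genotype as the single term) in R 4.3.3, with Benjamini-Hochberg adjustment over all genes tested. Standard errors were taken as the fitted log2 value over the root of F. Differences in mean cpm were compared by two-sided exact permutation tests over the 126 splits of the mice into 4 and 5 (smallest p 0.0159) in Python 3.11.15. Of the 18127 genes tested 666 had an unadjusted p under 0.05 in this test, and 0 passed after adjustment. With that smallest p over so many genes, adjustment could hardly pass any gene, so this 0 is not read as a result. Alternatives were RLE size factors, library totals, no filter, at least 50 counts, DESeq2 1.42.0, Xist as a covariate, a block on the replicate number, thinned counts and each library left out. The scripts were tested on simulated data. The limit of 3 counts per library covers counting error only, while the 95% intervals of fold changes come from the edgeR fit and include the spread between mice. Same-genotype libraries differed by more than sampling noise, with a chi-square per degree of freedom of 1.07 to 2.27, so none was treated as a copy.

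The genes and lists were chosen with earlier results of these data known. Named are Park7, the 9 genes, the 2 tested genes of each pathway list with the smallest unadjusted p between genotypes, close paralogs that could share reads, and the 5 genes most like the mean of the 9. A gene that this rule names is not reported here. Shared ends were found by exact 50-base matches among GENCODE M21 transcripts.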

Additional observations from a re-analysis of the deposited data

How the results depend on the processing

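None of the 9 genes was called between genotypes under any alternative run. The genes called over all genes rose from 1 to 36 with no filter on low counts, to 8 with the replicate block and to 3 in the 6 mice with over 100 Xist counts, and were 1 to 2 with each library left out. Of the 9 genes 0 had an unadjusted p under 0.05 in the main fit, beside 511 of all genes tested. The count was 1 with Xist as a covariate (Ifit3, beside 445), with the replicate block (Oasl2, log2 fold change 1.11, beside 569) and without DJ-1 KO replicate 5 (Oasl2, beside 650). It was 0 to 1 over the fits without 1 library, beside 338 to 732. Replicate 5 exists in DJ-1 KO mice alone, so with the block that library adds nothing to the genotype difference, as when it is left out. The numbers in the titles were not shown to pair the mice, since deviations of same-numbered mice correlated at 0.16, -0.01, -0.07 and -0.09, and the replicate block is given here alone.

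Of 171 alternative log2 fold changes of the 9 genes, 17 reversed. Xist as a covariate gave -0.13 for Irf7, -0.15 for Ifit1, -0.11 for Ifi27 and -0.095 for Bst2, and thinned counts gave -0.0076 for Irf7. With 1 library left out the log2 fold change ran from -0.18 to 0.68 for Irf7, -0.33 to 0.37 for Isg15, -0.015 to 0.29 for Ifit1, -0.044 to 0.20 for Ifi27 and -0.24 to 0.38 for Bst2. The difference in cpm, DJ-1 KO minus WT, then ran from -0.595 to 1.73 for Irf7, -2.87 to 2.52 for Isg15, -0.303 to 5.81 for Ifit1, -3.24 to 12.6 for Ifi27 and -1.41 to 2.61 for Bst2. Settings added after seeing the data reversed Irf7 (-0.52), Ifit1 (-0.14) and Ifi27 (-0.20) without WT replicates 1 and 4, and Irf7 (-0.42) and Ifi27 (-0.11) in the 6 mice with over 100 Xist counts. There the median correlation of pairs was 0.084, against 0.51 over all 9 mice. The cause of these changes was not tested.

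For the slope on Xist, the genes called went from 30 to 316 with no filter, 16 with at least 50 counts, 94 without WT replicates 1 and 4, 1 in WT mice alone and 211 in DJ-1 KO mice alone, and from 4 to 389 with 1 library left out. The 9 genes with an unadjusted p under 0.05 went from 6, beside 3.58% of the genes rising with Xist, to 2 in WT mice alone, beside 1.24%. With 1 library left out they were 3 to 6, beside 2.31% to 5.24%. Ifi27 passed adjustment for the slope with no filter (edgeR adjusted p 0.0044) and without WT replicate 1, and over the other fits its adjusted p lay above 0.05. The slope of Isg15 was -0.0022 without WT replicates 1 and 4. The planned sum of Isg15 with Gm9706 was not run, because no row carried that name. Low counts, such as 0 to 6 per mouse for Irf7, limit what can be shown.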
